A study of Mus musculus with 9 samples.

Results

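Expression of 37 genes of innate sensing was followed in the RNA sequencing libraries of bone marrow-derived dendritic cells (BMDCs) that were left untreated or treated with exosomes. The genes were chosen by name as Toll-like receptors (TLRs), co-receptors and adaptors, C-type lectin sensors, NOD proteins and inflammasome parts, that is, genes that detect microbes or damage and pass the signal on, without the cytokines that respond to them. All 37 were found in the deposited count table, each in 1 row of the 57238 entries, and all 37 passed the filter on low counts that left 15028 genes to be tested. The BMDCs came from the bone marrow of wildtype C57BL/6 mice and had been grown with GM-CSF at 20 ng/ml, over 6 days according to the labels, while the study's methods give a different length of culture. The study's methods describe the donors as young adult mice and the cells as purified, without naming a sorting step. Control cells (CTR) received nothing more, NE-treated cells received exosomes of a non-cancerous cell for 24 h, and TDE-treated cells received tumor-derived exosomes for 24 h. Each group had 3 libraries. The study names NIH 3T3, a mouse fibroblast line, as the source of the NEs, and its methods give TC-1, a mouse line used as a model of cervical carcinoma, or MC38, a mouse colon carcinoma line, as the source of exosomes that are not otherwise specified. Which of them served here is not given in the labels. Exosomes were concentrated on a filter and isolated with a quick extraction reagent, and all groups share the GM-CSF culture, which yields dendritic cells together with macrophage-like cells and granulocytes.

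TLRs bind conserved microbial molecules, lipids and proteins at the cell surface and nucleic acids in endosomes. Their intracellular domains recruit the adaptors MyD88 or TRIF, and from MyD88 the signal passes through kinases of the IRAK family to the ubiquitin ligase TRAF6 and on to NF-kappaB and MAP kinases. C-type lectin sensors recognize fungal and bacterial glycans and signal through SYK and CARD9. NOD proteins recognize fragments of bacterial cell wall and signal through RIPK2, and inflammasomes activate caspases that process interleukin precursors. In dendritic cells these receptors are known for triggering maturation, cytokine release and the ability to prime T cells.

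Between 17469713 and 21092850 rounded reads per library lay on genes, and the limit set by 3 reads was between 0.135 and 0.19 CPM (counts scaled to the library total, normalized by TMM), which covers counting error only. CTR replicate 1 stood apart. Its correlation with the other libraries across genes was 0.852 to 0.914, against 0.958 to 0.996 among the other 8, and of the 37 genes 21 were lowest and 10 highest in it of all 9 libraries. The counts of the 37 genes are therefore also given without that library. The labelled cell type was checked against markers. Of 13 dendritic cell markers none was at 0 in all libraries and 7 of 12 tested were lower in TDE-treated than in CTR BMDCs, with a summed level of 15110 CPM in CTR replicate 1 and of 6357 and 5184 in the other CTR libraries, 4919 to 6150 in NE-treated and 2858 to 3055 in TDE-treated BMDCs. Cd74, the invariant chain of MHC class II, was the highest of them (8675 CPM in CTR replicate 1, 2632 and 2057 in the other CTR libraries and 867 ± 23.6 in TDE-treated BMDCs, SD, n = 3). Of 12 neutrophil markers 8 were lower in TDE-treated BMDCs, with sums of 29320 CPM in CTR replicate 1 and of 10020 and 7673 in the other CTR libraries, 8080 to 11380 in NE-treated and 3685 to 3982 in TDE-treated BMDCs, as were all 8 markers of eosinophils, basophils and mast cells (1728 CPM in CTR replicate 1, 708 and 536 in the other CTR libraries, 570 to 649 in NE-treated and 132 to 151 in TDE-treated BMDCs). Of 12 macrophage and monocyte markers 1 was higher, Adgre1, which encodes F4/80 (log2 fold change 2.56, adjusted p = 0.00130), and 2 were lower. The sums were 5810 to 6038 CPM in CTR, 5709 to 6209 in NE-treated and 6569 to 6911 in TDE-treated BMDCs. Adgre1 itself went from 377.6 ± 149.5 CPM in CTR to 2229 ± 102.5 in TDE-treated BMDCs (SD, n = 3). The median log2 fold change of the 12 against CTR was -0.36, so the higher sum does not give the direction of the list. Lymphocyte (3 of 4 tested lower, sums of 10.9 to 35.7 CPM over all libraries), fibroblast (2 of 6 tested higher, 6.40 to 11.8 CPM) and epithelial markers (1 of 2 tested lower, 4.37 to 12.7 CPM, with Krt5 at 0 in every library) were low. Without CTR replicate 1, 10 of the 12 tested dendritic cell markers, 10 of 12 neutrophil markers and 8 of 12 macrophage and monocyte markers were lower, and 1, 1 and 2 were higher. All 8 markers of eosinophils, basophils and mast cells were lower in that fit too. Of all tested genes, 9.34% were lower and 7.57% higher against CTR with all 9 libraries. Without CTR replicate 1 these shares were 18.0% and 16.4%. The part of these marker shifts in the values of the sensing genes was not tested, and in bulk RNA fewer cells of a type and less RNA per cell cannot be told apart. The labels do not say whether the libraries of a group came from separate mice or cultures, so p-values measure only the spread between these libraries.

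In TDE-treated against CTR BMDCs, 10 of the 37 genes differed with an adjusted p-value under 0.05 in edgeR's quasi-likelihood test, 27.0% of them, where 16.9% of all tested genes did. Of these, 8 rose (21.6% of the 37, where 7.57% of all tested genes rose) and 2 fell (5.41%, where 9.34% of all tested genes fell). The genes that rose were, from the largest change, Irak3, Tlr1, Clec4e, Ticam1, Tlr9, Tlr6, Ripk2 and Irak2, and the genes that fell were Clec7a and Clec5a. The median log2 fold change of the 37 was 0.16, beside -0.05 for all tested genes. Against NE-treated BMDCs, 7 of the 37 differed (18.9%, where 13.9% of all tested genes did), of which 5 were higher (13.5%, where 6.73% of all tested genes were higher) and 2 were lower (5.41%, where 7.21% of all tested genes were lower). Irak3, Tlr1, Ticam1, Clec4e and Ripk2 were higher, Clec7a and Clec5a were lower, and the median was 0.16 beside -0.02 for all tested genes. These comparisons share the TDE-treated libraries and are not independent. For 18 of the 37 genes the TDE and CTR libraries did not overlap, where 44.3% of all tested genes showed this. Of these 18 genes, 8 were not called. Between TDE and NE libraries 22 genes did not overlap, where 55.0% of all tested genes showed this, and 15 of the 22 were not called. A lack of overlap was thus common among all genes and does not by itself set a gene apart. In the text, passing the test means an adjusted p-value under 0.05 in edgeR with all 9 libraries unless another tool or set of libraries is named. DESeq2, which the study used, called 13 of the 37 against CTR (35.1%, where it called 27.0% of all tested genes). Against NE-treated BMDCs it called 11 (29.7%, where it called 20.3% of all tested genes). The genes it added were Ticam2, Traf6 and Nod1 against CTR (DESeq2 adjusted p = 0.0100, 0.0135 and 0.0108). Against NE-treated BMDCs it added Tlr2, Tlr9, Irak2 and Nod1 (DESeq2 adjusted p = 0.0296, 0.00671, 6.04e-05 and 0.0158). The limma voom test with sample quality weights called more genes, 23 of the 37 against CTR (62.2%, where it called 52.5% of all tested genes) and 24 against NE-treated BMDCs (64.9%, where it called 55.3% of all tested genes). In NE-treated against CTR BMDCs 0 of the 37 differed in edgeR, DESeq2 or limma voom, 0 had an unadjusted p-value under 0.05, and edgeR called 0 percent of all tested genes (0 of 15028, with 487 at an unadjusted p-value under 0.05), DESeq2 0.0403% and limma voom 0.12%.

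**Figure D1:**
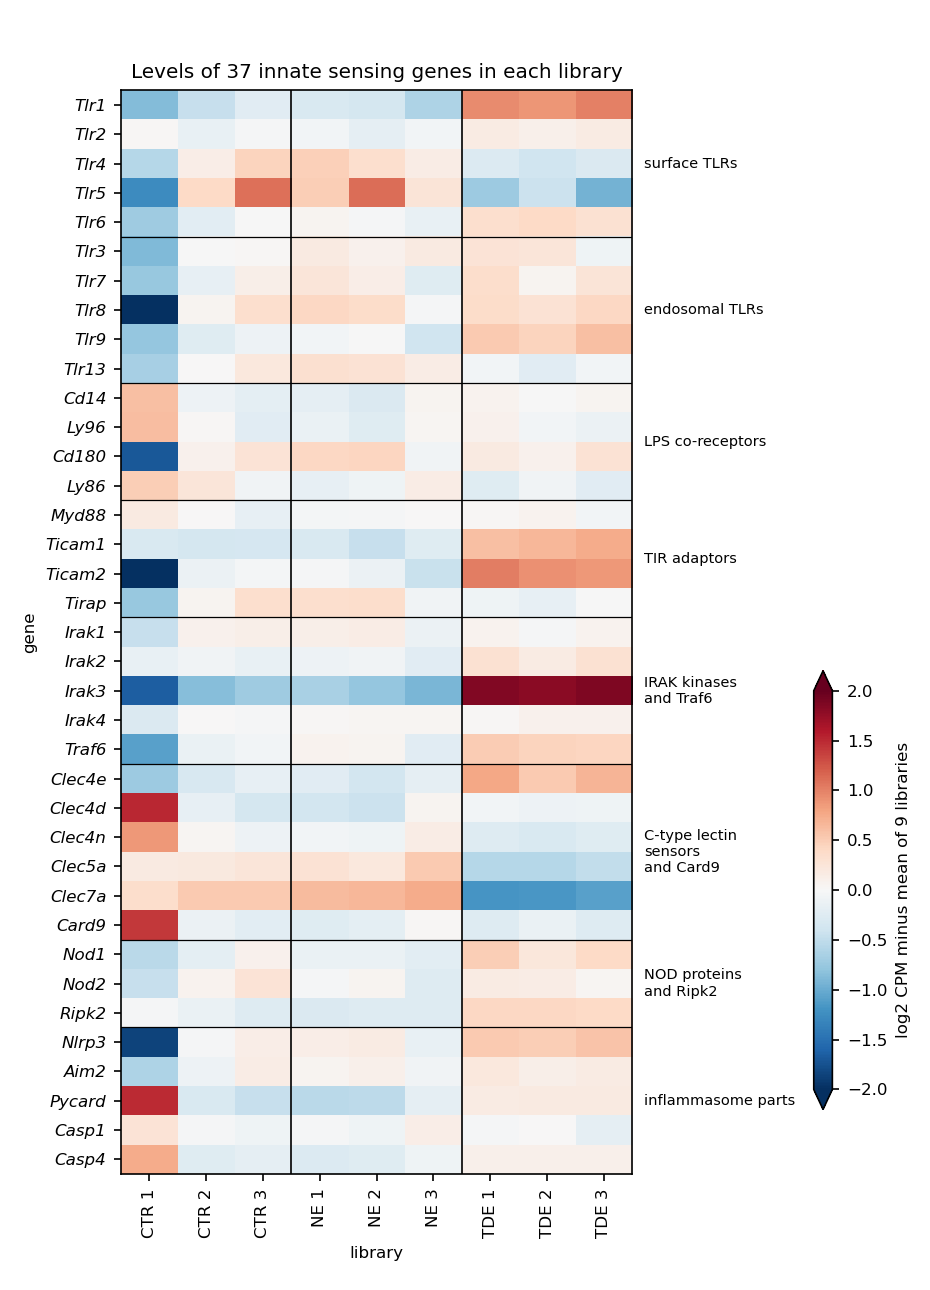
Each row is 1 of the 37 genes, grouped by role, and each column 1 library of CTR, NE-treated or TDE-treated BMDCs. Color gives log2 CPM minus the gene's mean over the 9 libraries, from -2 (blue) to 2 (red), with arrows for values beyond. Irak3 and Tlr1 are red and Clec7a is blue in all 3 TDE libraries, and CTR replicate 1 differs from the other CTR libraries in many rows.

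**Figure D2:**
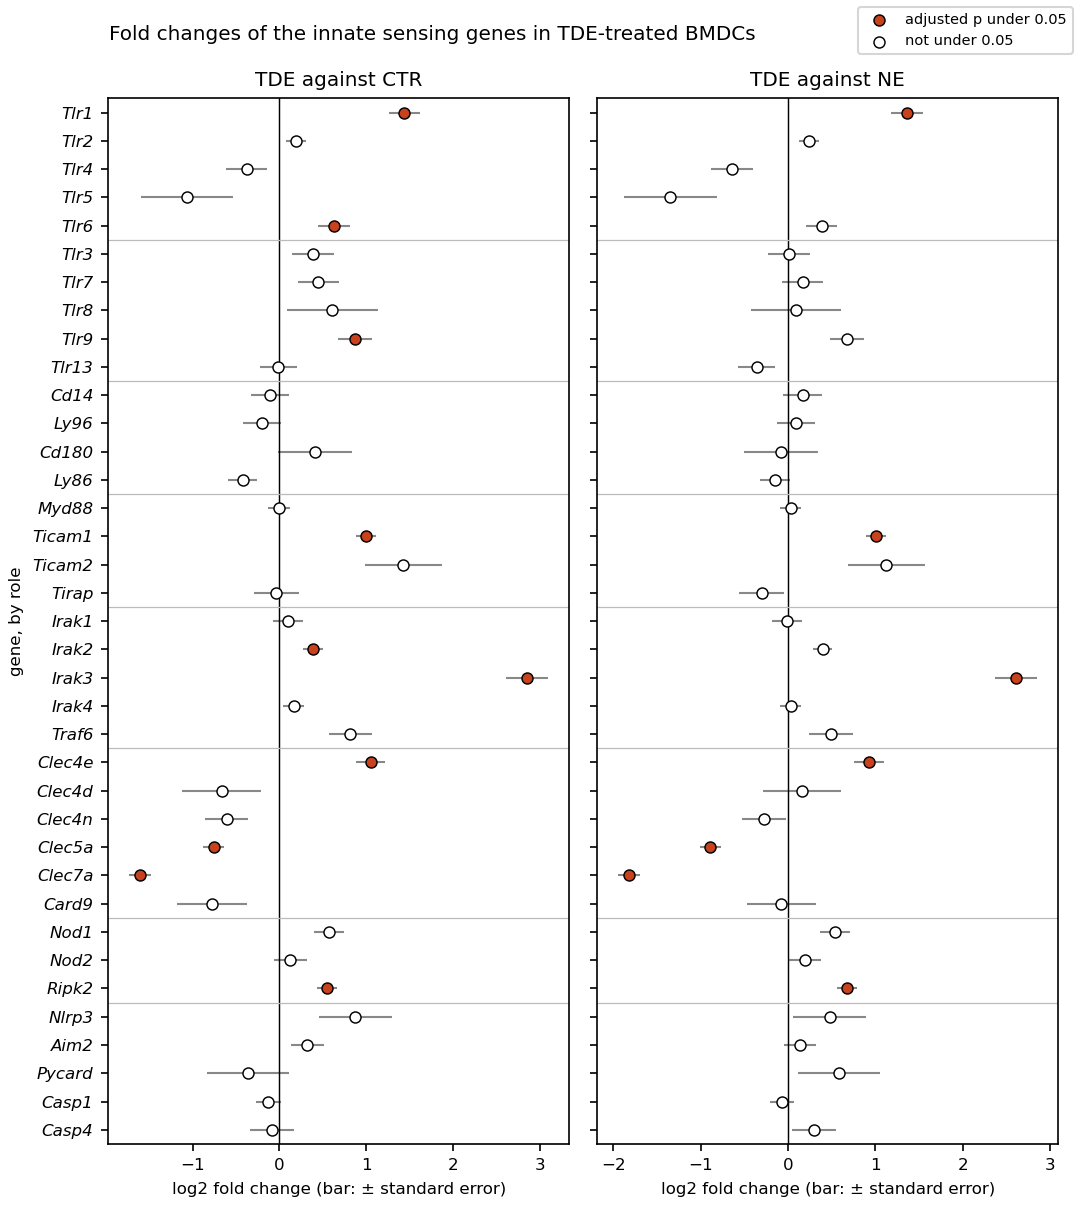
Log2 fold change of each gene in TDE-treated BMDCs against CTR (left) and against NE-treated BMDCs (right), with bars of ± 1 standard error from edgeR. Filled points mark an adjusted p-value under 0.05, 10 genes on the left and 7 on the right, with Irak3 at 2.85 and 2.61 and Clec7a at -1.61 and -1.82.

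The sequence just upstream of the start is given for the 2 genes that rose most and the 2 that fell against CTR since these genes moved in opposite directions. The 250 bases are from RefSeq promoters of mouse genome build GRCm38.p6, upstream of the outermost listed start, 5′ to 3′ on the strand of the gene, which is the minus strand for all 4. They lie at chr10:120202131-120202380 (Irak3), chr5:64933559-64933808 (Tlr1), chr6:129472786-129473035 (Clec7a) and chr6:40585806-40586055 (Clec5a), and capitals mark GAGGAA on either strand, a core bound by PU.1, an ETS factor of myeloid cells.
Irak3: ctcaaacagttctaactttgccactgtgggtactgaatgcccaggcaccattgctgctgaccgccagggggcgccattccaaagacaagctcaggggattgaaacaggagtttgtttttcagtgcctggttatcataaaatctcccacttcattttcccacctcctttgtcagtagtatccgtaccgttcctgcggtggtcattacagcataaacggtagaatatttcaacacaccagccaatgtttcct
Tlr1: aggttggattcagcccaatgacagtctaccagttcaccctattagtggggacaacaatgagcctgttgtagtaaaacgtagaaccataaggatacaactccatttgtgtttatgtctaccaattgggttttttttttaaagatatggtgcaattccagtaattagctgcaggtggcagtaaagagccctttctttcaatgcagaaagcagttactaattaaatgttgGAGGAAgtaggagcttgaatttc
Clec7a: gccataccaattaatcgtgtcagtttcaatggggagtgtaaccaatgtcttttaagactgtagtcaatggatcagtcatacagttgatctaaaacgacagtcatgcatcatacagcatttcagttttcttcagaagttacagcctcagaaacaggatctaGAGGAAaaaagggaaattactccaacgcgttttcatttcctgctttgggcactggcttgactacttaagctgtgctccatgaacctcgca
Clec5a: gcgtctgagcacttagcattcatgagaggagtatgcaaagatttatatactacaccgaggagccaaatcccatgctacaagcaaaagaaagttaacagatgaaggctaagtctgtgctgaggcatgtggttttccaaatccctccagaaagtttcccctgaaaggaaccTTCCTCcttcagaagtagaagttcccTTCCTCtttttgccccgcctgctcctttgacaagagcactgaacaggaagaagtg
Over the 300 bases of the first entry of a gene, 250 before and 50 after that start, GAGGAA was present on either strand in 28.3% of 27025 genes, and in 14 of the 30 members with an entry (46.7%). It lay 23 bases upstream of the Tlr1 start, at 2 sites upstream of Clec5a and at 1 upstream of Clec7a, and the stretch shown for Irak3 held none. The kappaB decamer (8.18% of all genes) was found in 4 of the 30, which were Casp4, Irak1, Tlr2 and Tlr3. The AP-1 letters TGANTCA (7.93%) were found in Tlr9 alone of the 30, and the C/EBP letters TTGCNNAA (10.8%) in 6, Clec4e, Pycard, Tlr3, Tlr6, Tlr8 and Tlr13. A match is a run of letters and not a site shown to be bound, and a missing match says only that the letters are not in this window. In the 4 sequences shown GAGGAA was the only one of these motifs found. The 50 bases after the Irak3 start used for its sequence are not shown. They held GAGGAA at bases 34 to 39 and the C/EBP letters at bases 9 to 16. The counts above rest on the first entry of Irak3, a different start, which held neither.

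Among the TLRs of the cell surface, Tlr1 and Tlr6 rose in TDE-treated against CTR BMDCs. Tlr2 and Tlr4 did not pass the test in edgeR, and Tlr5 was expressed at a low level. The limma voom test called all 5 in both comparisons, with Tlr4 and Tlr5 lower and the others higher. It called 52.5% of all tested genes against CTR and 55.3% against NE-treated BMDCs. Tlr1, the partner of TLR2 for triacylated lipopeptides (GRCm38, chromosome 5, 64924679 to 64933563), stood at 27.4, 36.6 and 42.6 CPM in CTR, 40.8, 39.2 and 32.7 in NE-treated and 96.2, 92.6 and 100.5 in TDE-treated BMDCs. All TDE libraries lay at more than any CTR or NE library, with a log2 fold change of 1.44 against CTR (SE 0.179, adjusted p = 0.00162) and of 1.36 against NE-treated BMDCs (SE 0.179, adjusted p = 0.00195). Tlr6, which pairs with TLR2 for diacylated lipopeptides, lies 18467 bases from Tlr1 on the same strand. Its levels were 19.6, 27.7 and 31.9 CPM in CTR, 33.5, 31.7 and 28.9 in NE-treated and 40.7, 42.1 and 39.9 in TDE-treated BMDCs. The TDE libraries were again above both other groups, but by a smaller step, 0.63 against CTR (SE 0.180, adjusted p = 0.0462) and 0.38 against NE-treated BMDCs (SE 0.179, adjusted p = 0.221). Both genes had fractional estimates in all 9 libraries, and as similar neighbors they could share reads, so the part of the change that belongs to each is uncertain.

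Tlr2 itself, the shared partner of both, was 212, 189 and 206 CPM in CTR, 201, 183 and 202 in NE-treated and 234, 225 and 233 in TDE-treated BMDCs. The TDE libraries lay above all others by a small step that did not pass the test, 0.19 against CTR (SE 0.116, adjusted p = 0.266) and 0.24 against NE-treated BMDCs (SE 0.116, adjusted p = 0.233). Tlr4, the receptor for lipopolysaccharide, was measured at 71.7, 117 and 146 CPM in CTR, 148, 135 and 118 in NE-treated and 88.6, 81.0 and 87.7 in TDE-treated BMDCs. The TDE libraries were below all NE libraries and within the range of CTR, where replicate 1 was the lowest of all 9. The log2 difference was -0.38 against CTR (SE 0.239, adjusted p = 0.284) and -0.64 against NE-treated BMDCs (SE 0.239, adjusted p = 0.125). Without CTR replicate 1 the adjusted p-values of Tlr4 were 0.00391 and 0.00152, with differences of -0.62 and -0.65. Tlr5, the flagellin receptor, had 0.887, 2.80 and 4.54 CPM in CTR, 2.97, 4.61 and 2.54 in NE-treated and 1.27, 1.58 and 1.097 in TDE-treated BMDCs, a difference from CTR of -1.06 (SE 0.530, adjusted p = 0.188), and of -1.48 (adjusted p = 0.00844) without CTR replicate 1. It was the least expressed of the 37 genes per length in CTR.

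Of the endosomal TLRs, which sense nucleic acids, Tlr9 rose against CTR and the other 4 did not pass the test in edgeR in either comparison. Of those 4, limma voom called Tlr7 against CTR (adjusted p = 0.0152) and Tlr13 against NE-treated BMDCs (adjusted p = 0.000234). It called 52.5% and 55.3% of all tested genes in these comparisons. Tlr9, the receptor for unmethylated CpG DNA (chromosome 9, 106222598 to 106226883), had 25.1, 36.3 and 40.2 CPM in CTR, 41.3, 42.7 and 32.6 in NE-treated and 62.0, 58.2 and 65.3 in TDE-treated BMDCs. No CTR or NE library reached the TDE libraries, and the log2 fold change was 0.87 against CTR (SE 0.194, adjusted p = 0.0196) and 0.67 against NE-treated BMDCs (SE 0.194, adjusted p = 0.0545), just short of the threshold. The call against CTR was lost in 6 of 17 alternative fits, among them each fit without 1 of the TDE libraries. Tlr7, a receptor for single-stranded RNA, was at 43.7, 65.9 and 80.6 CPM in CTR, 87.6, 81.3 and 62.2 in NE-treated and 94.6, 77.1 and 88.1 in TDE-treated BMDCs, and the groups overlapped (difference from CTR 0.45, SE 0.235, adjusted p = 0.205). Its neighbor on the X chromosome, Tlr8, had 55.6, 270.3 and 329 CPM in CTR, 348, 336 and 255 in NE-treated and 337, 318 and 345 in TDE-treated BMDCs. Apart from CTR replicate 1, which was far below the rest, all libraries of Tlr8 lay in 1 range, and the difference from CTR was 0.61 with that library (SE 0.519, adjusted p = 0.418) and 0.14 without it (adjusted p = 0.461). Tlr3, the receptor for double-stranded RNA, was at 4.63 to 10.4 CPM over all libraries (differences 0.39 and 0.01). Tlr13, which senses bacterial ribosomal RNA, was at 187, 167 and 188 CPM in TDE-treated and 242, 238 and 215 in NE-treated BMDCs, a log2 difference of -0.36 (SE 0.213, adjusted p = 0.347), and within the range of CTR. That difference from NE-treated BMDCs passed in edgeR without CTR replicate 1 (adjusted p = 0.00821) and with only the 6 libraries of the pair (adjusted p = 0.00720).

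Of the 4 genes listed as co-receptors, Cd14, Ly96, Cd180 and Ly86, edgeR and DESeq2 called 0 in either comparison. In edgeR 1 had an unadjusted p-value under 0.05 against CTR and 0 against NE-treated BMDCs. Of all tested genes, edgeR called 16.9% against CTR and 13.9% against NE-treated BMDCs, and DESeq2 27.0% and 20.3%. In edgeR 5225 and 3968 of 15028 genes had an unadjusted p-value under 0.05. With only 4 genes these counts do not set the co-receptors apart from all tested genes. The limma voom test called Ly86 against CTR (adjusted p = 0.00258) and Cd14 against NE-treated BMDCs (adjusted p = 0.00236). It called 52.5% and 55.3% of all tested genes in these comparisons. Cd14, which hands lipopolysaccharide to TLR4, had 1010, 623 and 581 CPM in CTR, 591, 546 and 692 in NE-treated and 697, 665 and 693 in TDE-treated BMDCs, with a difference of -0.11 from CTR (SE 0.222, adjusted p = 0.740) and of 0.17 from NE-treated BMDCs (SE 0.222, adjusted p = 0.738). Ly96, which encodes MD-2, the lipid-binding partner of TLR4, was at 10.5 to 19.0 CPM over all libraries and differed by -0.20 from CTR (SE 0.217, adjusted p = 0.525). Cd180, a TLR4-related surface protein of antigen-presenting cells, had 25.2, 86.1 and 98.3 CPM in CTR and 92.7, 86.5 and 99.8 in TDE-treated BMDCs, with CTR replicate 1 far below all other libraries (difference 0.41, SE 0.424, adjusted p = 0.501). Ly86, the partner of Cd180, had 119, 101 and 80.8 CPM in CTR and 71.7, 80.6 and 72.2 in TDE-treated BMDCs, so that the TDE libraries lay just below those of CTR, with a difference of -0.42 (SE 0.168, adjusted p = 0.118).

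The adaptor of the TRIF branch, Ticam1, rose in TDE-treated BMDCs, whereas Myd88 and Tirap, which serve the MyD88 branch, did not pass the test, and this difference between adaptors was not itself tested. Ticam1 (chromosome 17, 56269319 to 56276786), which encodes TRIF, was alike in the other groups, at 20.7, 20.1 and 20.1 CPM in CTR and 20.7, 18.6 and 21.5 in NE-treated BMDCs, and at 38.7, 40.3 and 42.8 in TDE-treated BMDCs. The lowest TDE library was far above the highest of the other 6. The log2 fold change was 1.001 against CTR (SE 0.115, adjusted p = 0.00115) and 1.002 against NE-treated BMDCs (SE 0.115, adjusted p = 0.00106), a 2.002-fold difference in both. Ticam2, the bridge between TLR4 and TRIF, had 16.4, 64.5 and 68.1 CPM in CTR, 68.4, 64.0 and 51.3 in NE-treated and 142, 132 and 128 in TDE-treated BMDCs. Its TDE libraries did not overlap with the others, but the difference did not pass the test, at 1.43 against CTR (SE 0.447, adjusted p = 0.0624) and 1.13 against NE-treated BMDCs (SE 0.444, adjusted p = 0.145). CTR replicate 1 was the lowest library, and without it the values were 1.002 (adjusted p = 0.000315) and 1.12 (adjusted p = 5.55e-05). With all 9 libraries, DESeq2 called Ticam2 against CTR (adjusted p = 0.0100) but not against NE-treated BMDCs (adjusted p = 0.0587). Exons of Ticam2 share 838 bases, 14.5% of its exonic bases, with Tmed7 on the same strand, which itself rose against CTR (log2 fold change 0.80, adjusted p = 0.0292), so reads may be shared between them. Myd88 was at 101, 90.2 and 80.2 CPM in CTR, 87.1, 88.1 and 90.2 in NE-treated and 90.7, 93.95 and 86.4 in TDE-treated BMDCs, with overlapping groups and a difference of 0.00 from CTR (SE 0.123, adjusted p = 0.988). Exons of Myd88 share 290 bases (11.3%) with Acaa1a on the opposite strand, which was at a mean of 191 CPM in CTR and 172 in TDE-treated BMDCs. Tirap, which brings MyD88 to the membrane, was at 16.4 to 35.1 CPM over all libraries and differed by -0.04 from CTR (SE 0.259, adjusted p = 0.923) and by -0.30 from NE-treated BMDCs (SE 0.259, adjusted p = 0.556). The limma voom test called Tirap lower against NE-treated BMDCs (adjusted p = 0.00117), where it called 55.3% of all tested genes.

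Irak3 showed the largest change of the 37 genes in both comparisons with TDE-treated BMDCs, and of the other IRAK genes Irak2 rose against CTR. Irak3 encodes IRAK-M, a family member without effective kinase activity that is known to restrain TLR signaling, and lies on chromosome 10 from 120141648 to 120202130. Its level was 37.8, 65.9 and 72.5 CPM in CTR, 75.6, 69.4 and 62.9 in NE-treated and 427, 415 and 431 in TDE-treated BMDCs. The 3 TDE libraries lay close together and far above the highest other library. Against CTR the log2 fold change was 2.85 (SE 0.243, adjusted p = 0.000328), 7.22-fold, and against NE-treated BMDCs it was 2.61 (SE 0.241, adjusted p = 0.000358), 6.12-fold. Over 17 alternative fits the value stayed between 2.61 and 3.04 against CTR and between 2.55 and 2.68 against NE-treated BMDCs, each with an adjusted p-value under 0.05. Exons of Irak3 share 192 bases (5.22%) with Tmbim4 on the opposite strand, which rose by less (log2 fold change 0.76, adjusted p = 0.0277).

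Irak2, a kinase that sustains the signal, had 102, 107 and 102 CPM in CTR, 105, 108 and 97.01 in NE-treated and 139.9, 127 and 140.3 in TDE-treated BMDCs. The TDE libraries were above all others by a modest step, 0.39 against CTR (SE 0.112, adjusted p = 0.0479) and 0.40 against NE-treated BMDCs (SE 0.112, adjusted p = 0.0513), and the call against CTR held in 5 of 17 alternative fits. Irak4, the first kinase recruited to MyD88, was at 52.2 to 67.97 CPM over all libraries, with differences of 0.16 from CTR (SE 0.120, adjusted p = 0.353) and 0.03 from NE-treated BMDCs (SE 0.120, adjusted p = 0.937). Irak1, its substrate, was at 67.9 to 103 CPM and differed by 0.10 (SE 0.173, adjusted p = 0.698) and -0.01 (SE 0.173, adjusted p = 0.983). Traf6 was at 23.2, 45.0 and 47.3 CPM in CTR, 52.0, 51.0 and 41.9 in NE-treated and 70.1, 67.5 and 66.1 in TDE-treated BMDCs. Its TDE libraries were the 3 highest, with a difference of 0.82 from CTR that narrowly missed the threshold (SE 0.252, adjusted p = 0.0590) and of 0.49 from NE-treated BMDCs (SE 0.250, adjusted p = 0.264). Without CTR replicate 1 these were 0.55 (adjusted p = 0.00350) and 0.48 (adjusted p = 0.00281). With all 9 libraries, DESeq2 called Traf6 against CTR (adjusted p = 0.0135) but not against NE-treated BMDCs (adjusted p = 0.197).

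**Figure D3:**
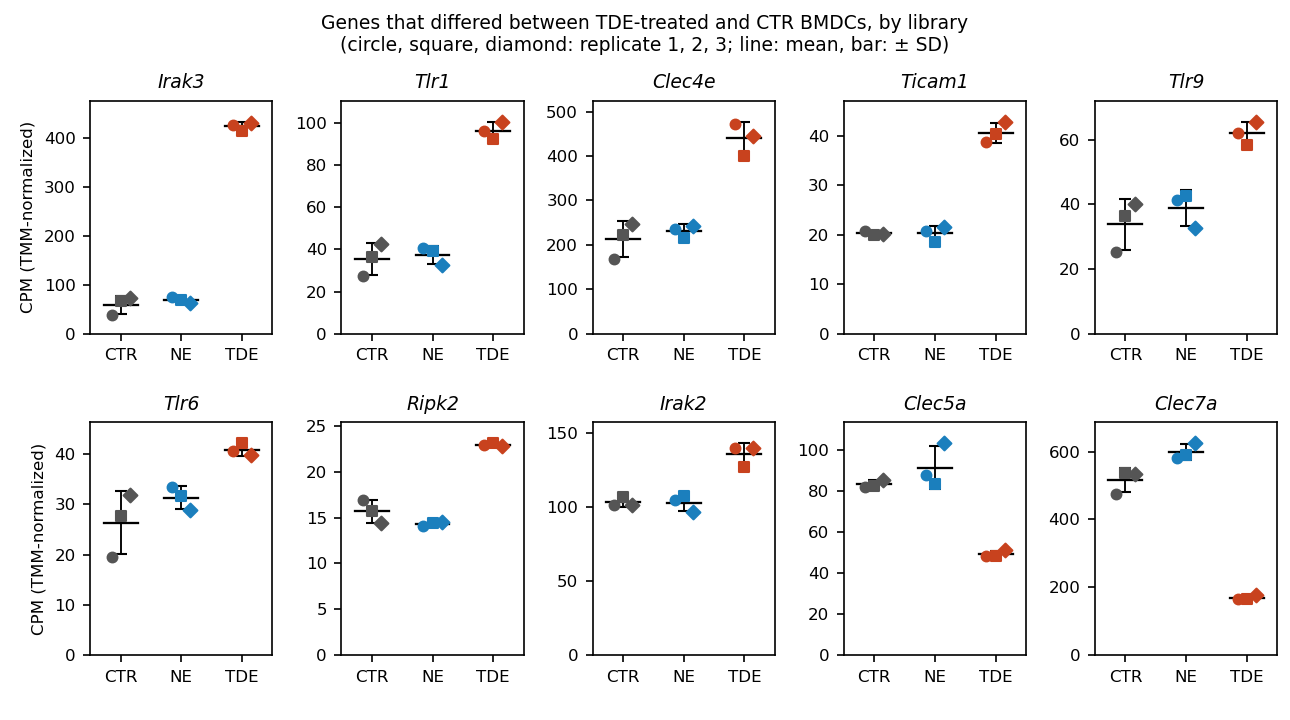
Level in CPM (TMM-normalized, axes from 0) of the 10 genes with an adjusted p-value under 0.05 in TDE-treated against CTR BMDCs. Circles, squares and diamonds are replicates 1, 2 and 3, lines the mean of 3 libraries and bars ± SD, and in all 10 panels the TDE libraries lie apart from the CTR and NE libraries, above them for 8 genes and below them for Clec5a and Clec7a. Of all tested genes, 44.3% showed no overlap between TDE and CTR libraries and 55.0% none between TDE and NE libraries.

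Of the 5 C-type lectin sensors Clec4e rose and Clec7a and Clec5a fell in TDE-treated BMDCs, and Clec4d and Clec4n did not pass the test. Clec7a, which encodes Dectin-1, the receptor for fungal beta-glucan, was at 474, 538 and 535 CPM in CTR, 582, 590 and 624 in NE-treated and 165, 166 and 177 in TDE-treated BMDCs. The highest TDE library was well under the lowest of the others. Its log2 fold change was -1.61 against CTR (SE 0.124, adjusted p = 0.000204) and -1.82 against NE-treated BMDCs (SE 0.125, adjusted p = 9.83e-05), and both calls were kept in 17 of 17 alternative fits. GENCODE vM21 lists the gene (chromosome 6, 129461591 to 129472779) as a polymorphic pseudogene. Clec5a, a receptor of myeloid cells that signals through DAP12 (chromosome 6, 40574894 to 40585821), was at 82.2, 82.4 and 85.6 CPM in CTR, 87.8, 83.7 and 103 in NE-treated and 48.7, 48.4 and 51.3 in TDE-treated BMDCs. Again no TDE library reached the lowest of the others, and the log2 fold change was -0.75 against CTR (SE 0.122, adjusted p = 0.00522) and -0.89 against NE-treated BMDCs (SE 0.122, adjusted p = 0.00241). The summed neutrophil, granulocyte and dendritic cell markers given above were lower in the same libraries, and their part in these falls was not tested.

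Clec4e, which encodes Mincle, a sensor of mycobacterial glycolipids and of dead cells (chromosome 6, 123281789 to 123289870), was at 168, 222 and 247 CPM in CTR, 236, 215 and 243 in NE-treated and 473, 399.7 and 446 in TDE-treated BMDCs. The TDE libraries lay above all others, with a log2 fold change of 1.05 against CTR (SE 0.169, adjusted p = 0.00516) and 0.93 against NE-treated BMDCs (SE 0.169, adjusted p = 0.00875). Its neighbor Clec4d, 6523 bases away on the opposite strand, encodes a lectin that pairs with Mincle and did not pass the test. Clec4d had 1271, 401 and 353 CPM in CTR, 348, 333 and 464 in NE-treated and 433, 421 and 423 in TDE-treated BMDCs. CTR replicate 1 was far above the rest and the TDE libraries lay within the range of the NE libraries, and the difference from CTR was -0.67 (SE 0.451, adjusted p = 0.314) with it and 0.16 (adjusted p = 0.390) without it. Clec4n, which encodes Dectin-2, a receptor for fungal mannans, lies 34767 bases from Clec4e and was at 1043, 585 and 530.2 CPM in CTR, 548, 535 and 632 in NE-treated and 474, 463 and 481 in TDE-treated BMDCs. All TDE libraries were below the others, without passing the test, at -0.61 against CTR (SE 0.250, adjusted p = 0.127) and -0.27 against NE-treated BMDCs (SE 0.249, adjusted p = 0.583). The limma voom test called Clec4n in both comparisons (adjusted p = 0.0031 and 0.0071) and Clec4d against NE-treated BMDCs (adjusted p = 0.0057). It called 52.5% of all tested genes against CTR and 55.3% against NE-treated BMDCs. With only the 6 libraries of the pair, edgeR called Clec4n against NE-treated BMDCs (adjusted p = 0.0279), where it called 41.9% of all tested genes. Card9, the adaptor shared by these lectins, had 315, 109 and 102 CPM in CTR and 98.7, 108 and 99.6 in TDE-treated BMDCs, with CTR replicate 1 far above all other libraries (difference -0.78 with it and -0.06 without it, adjusted p = 0.199 and 0.701).

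Of the NOD pathway, Ripk2 was higher in TDE-treated BMDCs. Ripk2, the kinase that both NOD proteins use (chromosome 4, 16122733 to 16163647), had 16.9, 15.8 and 14.4 CPM in CTR, 14.1, 14.4 and 14.5 in NE-treated and 22.9, 23.1 and 22.8 in TDE-treated BMDCs. The TDE libraries lay above all others, and the log2 fold change was 0.55 against CTR (SE 0.115, adjusted p = 0.0150) and 0.68 against NE-treated BMDCs (SE 0.115, adjusted p = 0.00627). The call held in 11 of 17 alternative fits against CTR, where it was lost in each fit without 1 of the TDE libraries, and in 17 of 17 against NE-treated BMDCs. Nod1 had 15.9, 20.3 and 24.8 CPM in CTR, 21.1, 21.2 and 20.1 in NE-treated and 32.9, 27.2 and 30.6 in TDE-treated BMDCs. Its TDE libraries were the 3 highest, but the differences of 0.57 from CTR (SE 0.173, adjusted p = 0.0556) and 0.54 from NE-treated BMDCs (SE 0.173, adjusted p = 0.0786) did not pass, and without CTR replicate 1 they were 0.41 (adjusted p = 0.0206) and 0.53 (adjusted p = 0.00308). DESeq2 called Nod1 in both comparisons (adjusted p = 0.0108 and 0.0158). Nod2 was at 16.4 to 27.2 CPM over all libraries, with differences of 0.13 (SE 0.192, adjusted p = 0.648) and 0.19 (SE 0.192, adjusted p = 0.635).

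Of the 5 inflammasome genes among the 37, edgeR and DESeq2 called 0 in either comparison with all 9 libraries, and 0 had an unadjusted p-value under 0.05 in edgeR. Of all tested genes, edgeR called 16.9% against CTR and 13.9% against NE-treated BMDCs, and DESeq2 27.0% and 20.3%. In edgeR 5225 and 3968 of 15028 genes had an unadjusted p-value under 0.05. A count of 0 among only 5 genes does not set them apart from these shares. The limma voom test called Nlrp3, Pycard, Casp4 and Aim2 against CTR (adjusted p = 0.000311, 0.000575, 0.00300 and 0.0191) and the first 3 of these against NE-treated BMDCs. It called 52.5% and 55.3% of all tested genes in these comparisons. An edgeR fit of only the 6 libraries of the pair called 0 of the 5 against CTR, where it called 7.93% of all tested genes. Against NE-treated BMDCs the pair fit called Nlrp3, Pycard and Casp4 (adjusted p = 0.00344, 0.00280 and 0.0212), where it called 41.9% of all tested genes. Nlrp3, the sensor of the best known inflammasome, had 30.3, 108 and 119 CPM in CTR, 119, 122 and 98.5 in NE-treated and 157, 154 and 161 in TDE-treated BMDCs. The TDE libraries were above all others, CTR replicate 1 was the lowest, and the difference was 0.88 with SE 0.420 (adjusted p = 0.174), against 0.46 with SE 0.103 (adjusted p = 0.00805) without CTR replicate 1. Pycard, which encodes the adaptor ASC, had 429, 123 and 110.4 CPM in CTR, 104, 106 and 134.3 in NE-treated and 171, 172 and 173 in TDE-treated BMDCs. CTR replicate 1 was above the TDE libraries and all others were below them, so that the direction against CTR turned from -0.36 (adjusted p = 0.598) to 0.55 (adjusted p = 0.00591) when it was left out. Casp4, the caspase that binds lipopolysaccharide in the cytosol, behaved likewise, with 47.8, 24.2 and 25.2 CPM in CTR and 30.5, 30.6 and 30.6 in TDE-treated BMDCs and a difference of -0.08 (adjusted p = 0.822) that became 0.29 (adjusted p = 0.0257). Casp1, the caspase of the inflammasome and a neighbor of Casp4 on chromosome 9, was at 53.1 to 72.6 CPM over all libraries, with differences of -0.13 (SE 0.140, adjusted p = 0.536) and -0.07 (SE 0.140, adjusted p = 0.852). Aim2, a sensor of cytosolic DNA, was at 43.2 to 76.9 CPM and differed by 0.32 (SE 0.188, adjusted p = 0.252) and 0.14 (SE 0.188, adjusted p = 0.750).

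Without CTR replicate 1, 18 of the 37 genes passed the test in TDE-treated against CTR BMDCs (48.6%, where 34.4% of 15301 tested genes did), 14 higher (37.8%, where 16.4% of tested genes were) and 4 lower (10.8%, where 18.0% of tested genes were). The 8 genes added were Ticam2, Traf6, Nod1, Nlrp3, Pycard and Casp4 with higher levels and Tlr4 and Tlr5 with lower levels, and the 10 called with all libraries were among the 18. Against NE-treated BMDCs, a comparison that does not hold that library but shares the estimate of the spread, 21 of the 37 differed (56.8%, where 40.7% of tested genes did), 15 higher (40.5%, where 19.2% of tested genes were) and 6 lower (16.2%, where 21.5% of tested genes were). The genes added there were Tlr2, Tlr6, Tlr9, Ticam2, Irak2, Traf6, Nod1, Nlrp3, Pycard and Casp4 with higher levels and Tlr4, Tlr5, Tlr13 and Clec4n with lower levels. In NE-treated against CTR BMDCs 0 of the 37 differed (where 0.0196% of tested genes, 3 of 15301, did). The standard error of Irak3 against CTR went from 0.243 to 0.1003 and that of Ticam2 from 0.447 to 0.122.

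**Figure D4:**
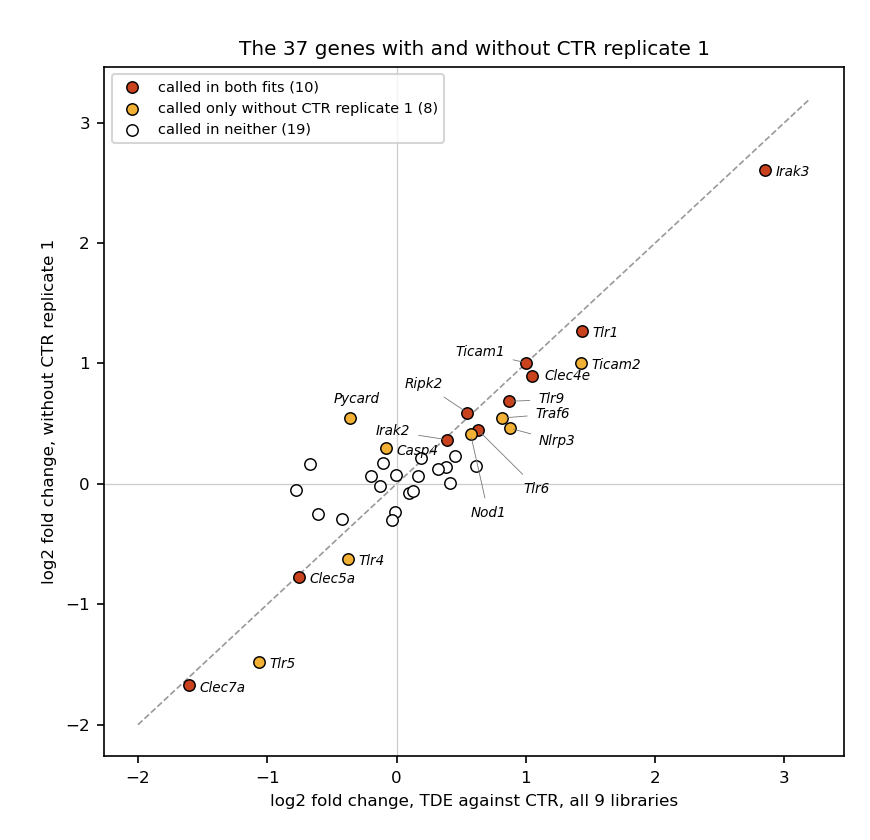
Log2 fold change of the 37 genes in TDE-treated against CTR BMDCs with all 9 libraries (x axis) and without CTR replicate 1 (y axis), where the dashed line marks equal values. Filled points are genes with an adjusted p-value under 0.05, 10 in both fits and 8 more without that library, and Pycard lies to the left of 0 on the x axis and above 0 on the y axis.

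Compared per length, the genes spanned a wide range of levels. In CPM per 1000 bases of the gene length in the deposited table, Clec4n (585 ± 229 in CTR, SD, n = 3), Clec4d (510.3 ± 390.5) and Cd14 (449.6 ± 144) were highest in CTR, with spreads wide enough that their order was not resolved. The level of Clec4d rested on CTR replicate 1, and without that library the CTR levels were 454 for Clec4n, 367 for Cd14 and 285 for Clec4d. Tlr3 (1.65 ± 0.522) and Tlr5 (0.857 ± 0.571) were lowest. Irak3 ranked 24 of 37 in CTR at 19.0 ± 5.94 and reached 137 ± 2.67 in TDE-treated BMDCs, where it stood next to Clec4e (174 ± 14.7). Clec7a went from 227 ± 15.8 to 74.5 ± 2.78 and Tlr1 from 11.8 ± 2.53 to 31.9 ± 1.30, a level in TDE-treated BMDCs like that of Ticam2 (31.8 ± 1.79). The length used for Pycard was that of 3800 bases, all of its annotated exonic bases, which lowers its value on this scale.

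**Figure D5:**
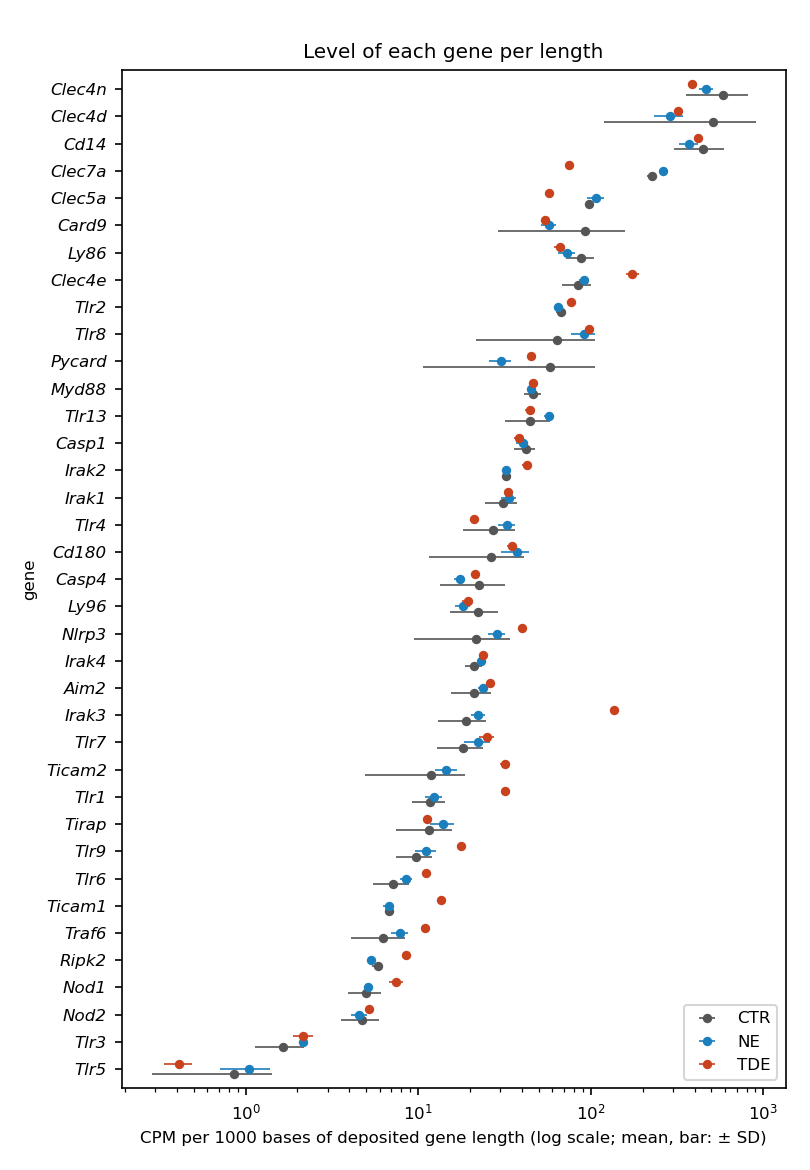
Level of each gene per length in CTR, NE-treated and TDE-treated BMDCs, as mean CPM per 1000 bases on a log axis with bars of ± SD over 3 libraries, ordered by CTR. Clec4n, Clec4d and Cd14 stand at the top and Tlr3 and Tlr5 at the bottom, and Irak3 in TDE-treated BMDCs lies far to the right of its CTR and NE points.

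Other genes of the same pathways were followed as lists that hold none of the 37. Of 72 genes listed, 1 (Mb21d1) was not matched by name and 3 (Sarm1, Nlrp6 and Cd209a) were too low in counts to be tested. Among 12 tested genes that restrain TLR signaling, 3 were higher in TDE-treated than in CTR BMDCs and 0 were lower, where 7.57% of all tested genes were higher and 9.34% lower, with a median log2 fold change of 0.30 beside -0.05 for all tested genes. Zc3h12a, which encodes the ribonuclease Regnase-1, had 41.5 ± 1.75 CPM (SD, n = 3) in untreated and 133 ± 3.78 in TDE-treated cells (log2 fold change 1.68, adjusted p = 8.72e-05), and Tnip1, a partner of the deubiquitinase A20, went from 90.2 ± 3.19 to 217 ± 9.92 CPM (log2 fold change 1.27, adjusted p = 0.000357). The third was Tnfaip3, A20 itself, named here after its values were seen, which rose by 1.20 on the log2 scale (adjusted p = 0.0395). Without CTR replicate 1 the counts were 6 and 0, where 16.4% of all tested genes were higher and 18.0% lower, and the shares of all tested genes are the same for the lists that follow. Of 11 kinases and partners below the adaptors, 1 was higher and 0 lower, Tab2 by 0.60 on the log2 scale (adjusted p = 0.0392), and 5 were higher without CTR replicate 1. Of 7 chaperones and further TLRs, Lbp, the carrier of lipopolysaccharide in serum, was higher (log2 fold change 0.52, adjusted p = 0.0190), Tlr12 was lower (-2.05, adjusted p = 0.00248) at 2.12 ± 0.414 CPM in CTR and 0.505 ± 0.0841 in TDE-treated BMDCs, and the other 5 did not pass.

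Of 9 tested genes of cytosolic RNA and DNA sensing, 2 were higher, Mavs (log2 fold change 0.72, adjusted p = 0.0203) and Dhx58 (0.57, adjusted p = 0.0381), and 1 was lower, Ifi204 (-0.55, adjusted p = 0.0441). Of 14 other NLR and inflammasome genes, Mefv, which encodes pyrin, was higher, from 38.2 ± 13.4 CPM in CTR to 123 ± 8.42 in TDE-treated BMDCs (log2 fold change 1.69, adjusted p = 0.00414), and Naip1 was lower (-0.65, adjusted p = 0.0416). Of 15 other C-type lectins and their kinases, 3 were higher and 2 lower. The lectins Clec4a1 (1.30, adjusted p = 0.000950) and Clec4a3 (1.12, adjusted p = 0.00781), which lie on chromosome 6 near Clec4e, were higher, as was the kinase Syk (0.76, adjusted p = 0.0376, named after its values were seen). Clec10a (-1.71, adjusted p = 0.0138) and Clec1b (-1.29, adjusted p = 0.0197) were lower, and Clec1b lies near Clec7a on chromosome 6. Of the lectin genes followed here, the chromosome 6 region from Clec4a1 (start 122921848) to Clec4e (end 123289870) held 3 that rose, Clec4a1, Clec4a3 and Clec4e, and 4 between them, Clec4b1, Clec4a2, Clec4n and Clec4d, that did not pass the test. This split depended on CTR replicate 1. In the edgeR fit without it, Clec4a2 was higher than in CTR (log2 fold change 0.69, adjusted p = 0.00074), while Clec4b1, Clec4n and Clec4d did not pass. Without CTR replicate 1, the higher and lower counts against CTR were 3 and 1 for cytosolic sensing, 3 and 4 for the other NLR and inflammasome genes, 6 and 5 for the other lectins and 3 and 1 for chaperones and further TLRs. Against NE-treated BMDCs with all 9 libraries, 2 brakes, 1 chaperone or further TLR, 1 gene of cytosolic sensing, 1 other NLR or inflammasome gene and 2 other lectins or their kinases were higher, and 0, 1, 1, 0 and 0 were lower, while 0 of the 11 kinases and partners passed the test (edgeR, where 6.73% of all tested genes were higher and 7.21% lower, 3 with an unadjusted p-value under 0.05).

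For NE treatment, the log2 differences of the 37 genes from CTR ran from -0.94 (Pycard) to 0.52 (Tlr8), with a lowest adjusted p-value of 0.659. Both of these extremes shrank without CTR replicate 1, to -0.02 for Pycard and 0.06 for Tlr8, and the median of the 37 went from 0.12 to 0.01. For the 7 genes with an absolute log2 difference of at least 1 in TDE-treated against CTR BMDCs, called or not, the values were 0.24 for Irak3 (SE 0.228), 0.21 for Clec7a (SE 0.121), 0.08 for Tlr1 (SE 0.176), 0.30 for Ticam2 (SE 0.439), 0.29 for Tlr5 (SE 0.511), 0.12 for Clec4e (SE 0.168) and 0.00 for Ticam1 (SE 0.115). The NE libraries lay above all CTR libraries for 3 of the 37, Clec7a, Tlr3 and Irak4. Of all tested genes, 7.72% showed no overlap between NE and CTR libraries. A missed threshold does not show that NE-treated and CTR BMDCs express these genes alike.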

How the data were processed

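RNA of BMDCs (9 libraries, 3 in each of the groups CTR, NE and TDE) was sequenced on an Illumina NovaSeq system after priming with oligo(dT) and random primers. The authors deposited 1 table of estimated counts per gene and library, with some fractional values (in 13 of the 37 genes described), not scaled to depth. Reads had been aligned with TopHat2 2.1.1 according to the submitters' processing notes. The counting program, its use of strand, the annotation and the build of the genome are not given in the sources used here. The table also holds the authors' mean count per group, which was not used, and a length per gene.

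Samples were grouped by the labels. Estimated counts were rounded, filtered with filterByExpr (15028 of 57238 entries kept), scaled by TMM and fitted in edgeR 4.0.16 (R 4.3.3) with 1 mean per group over all 9 libraries. The quasi-likelihood test was used for TDE against CTR, TDE against NE and NE against CTR, with Benjamini-Hochberg adjustment over all tested genes and a threshold of 0.05. CPM and CPM per 1000 bases were computed only for display. Standard errors were taken as the absolute log2 fold change divided by the square root of the F statistic. The fit was tested on simulated data. Alternatives were DESeq2 1.42.0, limma 3.58.1 (voom with sample quality weights), library totals alone, factors from median ratios, fits without a filter, a minimum of 10 counts in every library, only the 6 libraries of a pair of groups, a replicate block, each of the 9 libraries left out, and an absolute log2 fold change of at least 1.

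The 37 genes and all lists were chosen with earlier results of these data known. All 37 genes are named. Of each pathway list, up to 2 genes per direction with the largest change in TDE against CTR are named among those past the threshold, and of marker lists up to 3 with the highest level. Gene positions and exon overlaps are from GENCODE vM21 (GRCm38), matched by gene name, and promoter sequences from RefSeq (GRCm38.p6), which held an entry for 30 of the 37. Python 3.11.15, pandas 2.3.3, numpy 2.4.6 and matplotlib 3.10.9 were used for tables and figures.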

Additional observations from a re-analysis of the deposited data

How the results depend on the processing

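Shares in parentheses are of all tested genes in the same fit. In TDE against CTR, where 10 of the 37 genes were called (16.9%), DESeq2 called 13 (27.0%) and limma voom with sample quality weights 23 (52.5%). A fit of only the 6 libraries of the pair called 6 (7.93%), and an absolute log2 fold change of at least 1 left 5 (10.5%). In TDE against NE, where 7 were called (13.9%), DESeq2 called 11 (20.3%), limma voom 24 (55.3%) and a fit of only the 6 libraries of the pair 21 (41.9%), and an absolute log2 fold change of at least 1 left 4 (8.7%). The pair fit against NE holds no CTR library. Leaving out 1 library at a time gave 6 to 18 genes against CTR, with 18 without CTR replicate 1 (34.4%) and 6 without TDE replicate 1, 2 or 3 (7.18%, 7.63% and 7.15%), and 6 to 21 genes against NE, with 21 without CTR replicate 1 (40.7%) and 6 without NE replicate 2 (7.0%). All alternatives called 0 of the 37 in NE against CTR. Pycard (-0.36 in the fit reported) turned to 0.50 with limma voom in TDE against CTR and lay between -0.67 (without CTR replicate 3) and 0.55 (without CTR replicate 1) when 1 library was left out. Casp4 (-0.08) turned to 0.32 with limma voom and lay between -0.25 (without CTR replicate 2) and 0.30 (without CTR replicate 1). The cause was not tested.

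Tlr1, Ticam1, Irak3, Clec5a and Clec7a were called in 17 of 17 alternatives in both comparisons with TDE. Clec4e was called in 17 against CTR and 15 against NE, where it was lost with library totals alone and without NE replicate 2, and Ripk2 in 11 and 17. Tlr9, Tlr6 and Irak2 were called in 11, 6 and 5 of 17 against CTR, each of them lost without TDE replicate 1, 2 or 3. Tlr6 was also lost without CTR replicate 2 or any 1 NE library, and Irak2 without CTR replicate 2 or 3 or any 1 NE library.

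With the replicate number as a replicate block, 6 genes were called in TDE against CTR (8.55%), 7 in TDE against NE (7.82%) and 0 in NE against CTR. The deviations of same-numbered libraries from their group means correlated between -0.100 and 0.103 for TDE and CTR. They correlated between -0.112 and 0.041 for TDE and NE and between -0.694 and 0.285 for NE and CTR. The numbers were not taken as pairs. With 3 libraries a group and CTR replicate 1 far from the rest, these correlations cannot show whether the libraries were paired. Scaling by library totals alone moved the median log2 difference of all genes in NE against CTR to 0.12. With 3 libraries a group and CTR replicate 1 apart from the rest, small differences in the CTR comparisons could not be resolved. The same limit holds for TDE against NE with all 9 libraries, since it shares the estimate of the spread.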

Other observations

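CTR replicate 1 differed from the other CTR libraries with gene length. Of the 10 sensing genes with a deposited length under 2000 bases, 9 were higher in it than in the mean of CTR replicates 2 and 3, with a median log2 difference of 0.73, and of the 27 longer genes 23 were lower, with a median of -0.64. Over the 10318 tested genes with a mean above 5 CPM, the medians were 0.90 and -0.42. NE replicate 3 showed the same direction to a smaller extent against the mean of NE replicates 1 and 2, with 10 of the 10 shorter genes higher (median 0.24) and 19 of the 27 longer genes lower (median -0.21), and medians of 0.30 and -0.09 over the 10318 genes. The deviations of CTR replicate 1 and NE replicate 3 from their group means correlated across genes with r = 0.606. The cause of this pattern was not tested.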
